A study of Mus musculus with 3 samples.

Results

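Axon guidance ligands and receptors were described across the cell classes of the mouse arcuate nucleus, a part of the mediobasal hypothalamus that controls feeding. Members were chosen by symbol alone, from the semaphorin, plexin, ephrin, Eph receptor, Slit, Robo, netrin and Unc5 families. The pattern matched 71 of the 31253 genes in the count matrices. Of these, 66 were guidance genes, made up of 35 ligands and 31 receptors. The 5 others were the 3 antisense transcripts of Plxna4 and the genes Unc50 and Unc5cl, which belong to other families and were kept apart. No member is among the marker genes that named the cell classes, and the members were left out of the genes used for clustering.

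The data are single-cell RNA counts from male C57BL/6JRj mice, 5 to 6 weeks old, with the tissue of 6 mice pooled into each library. The SC library came from mice kept on standard chow for 15 days from weaning. For the HFHS_5d library a high-fat high-sugar (HFHS) diet, labelled 58%, replaced the chow after 10 days and was given for 5 days. The HFHS_15d library came from mice given that diet for all 15 days. With 1 library per diet there is no replicate of any diet, so no test was run and no p-value is given. Intervals cover counting error at the 95% level only, and a difference between diets cannot be told apart from a difference between pools of mice or libraries.

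Semaphorins signal through plexins, with neuropilins as co-receptors for most class 3 members. Ephrins and Eph receptors signal between touching cells, and ephrins can also signal back into the cell that carries them. Slit proteins bind Robo receptors, and netrins bind Dcc, neogenin and Unc5 receptors. These systems were named for the steering of growing axons, but many members also act in blood vessel patterning, glial development and synapse formation. Tanycytes are the elongated glia that line the floor and lower walls of the third ventricle and send a process into the arcuate nucleus or the median eminence.

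After filtering, 14023 cells were kept, 4825 in the SC library, 4041 in the HFHS_5d library and 5157 in the HFHS_15d library. The median was 5131, 5779 and 4130 UMIs per cell in that order, so the HFHS_15d library was the shallowest. Cell barcodes found in more than 1 library numbered 13 between the SC and HFHS_5d libraries, 72 between SC and HFHS_15d, and 85 between HFHS_5d and HFHS_15d. Clusters were named from marker genes as "-like" classes, and 12 classes with at least 15 cells in every library were compared for levels. In each of the 12 classes, 0 of its own listed markers were at 0 in all 3 libraries. The same markers named the classes, so this cannot check the names. Clusters of 1581 cells in all stayed unnamed. The largest held 958 cells with a median of 1358 UMIs, tanycyte-like at first but another class when clustered again. It enters no tanycyte-like level, type or diet ratio. The tanycyte-like cells kept had medians of 13765 UMIs in SC, 14406 in HFHS_5d and 8120 in HFHS_15d. Levels are given as CPM, the UMIs of a gene per 1000000 UMIs of that class in that library. Values are compared between classes for the same gene, never between genes. Marker lists were not confined to their own class. The tanycyte list summed to 10507, 9916 and 9162 CPM in pericyte-like cells and 9822, 9866 and 9811 in tanycyte-like cells. Macrophage-like cells held 14979, 15838 and 14651 CPM of the microglia list and 3149, 785 and 3275 of a lymphocyte list.

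Most members with enough UMIs were highest in the same class in every library, as were most of all genes with enough UMIs. Of the 66 members, 59 had at least 30 UMIs over the 12 classes in each library, and 41 of those were highest in the same class in all 3 libraries. Across all genes that met the same minimum, 60.8% had the same leading class in all 3 libraries. The 41 members comprised 22 ligands and 19 receptors. Leading was judged by CPM alone, and for some of the 41 the interval of the ratio to the next class includes equality in some library. Neuron-like cells led for 13 members, endothelial-like cells for 7, new oligodendrocyte-like cells for 5, and astrocyte-, OPC-, pericyte- and tanycyte-like cells for 3 each. Ependymal- and mature oligodendrocyte-like cells led for 2 each, where 8.61% and 2.9% of all genes were led by these classes. COP-, microglia- and macrophage-like cells led for 0 members, where they led for 3.48%, 4.22% and 2.28% of all genes. OPC are oligodendrocyte precursor cells and COP are committed oligodendrocyte precursors. Over the members with one leading class, the median ratio of the leading class to the next was 2.56, beside 1.68 over all genes with one leading class.

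**Figure D1:**
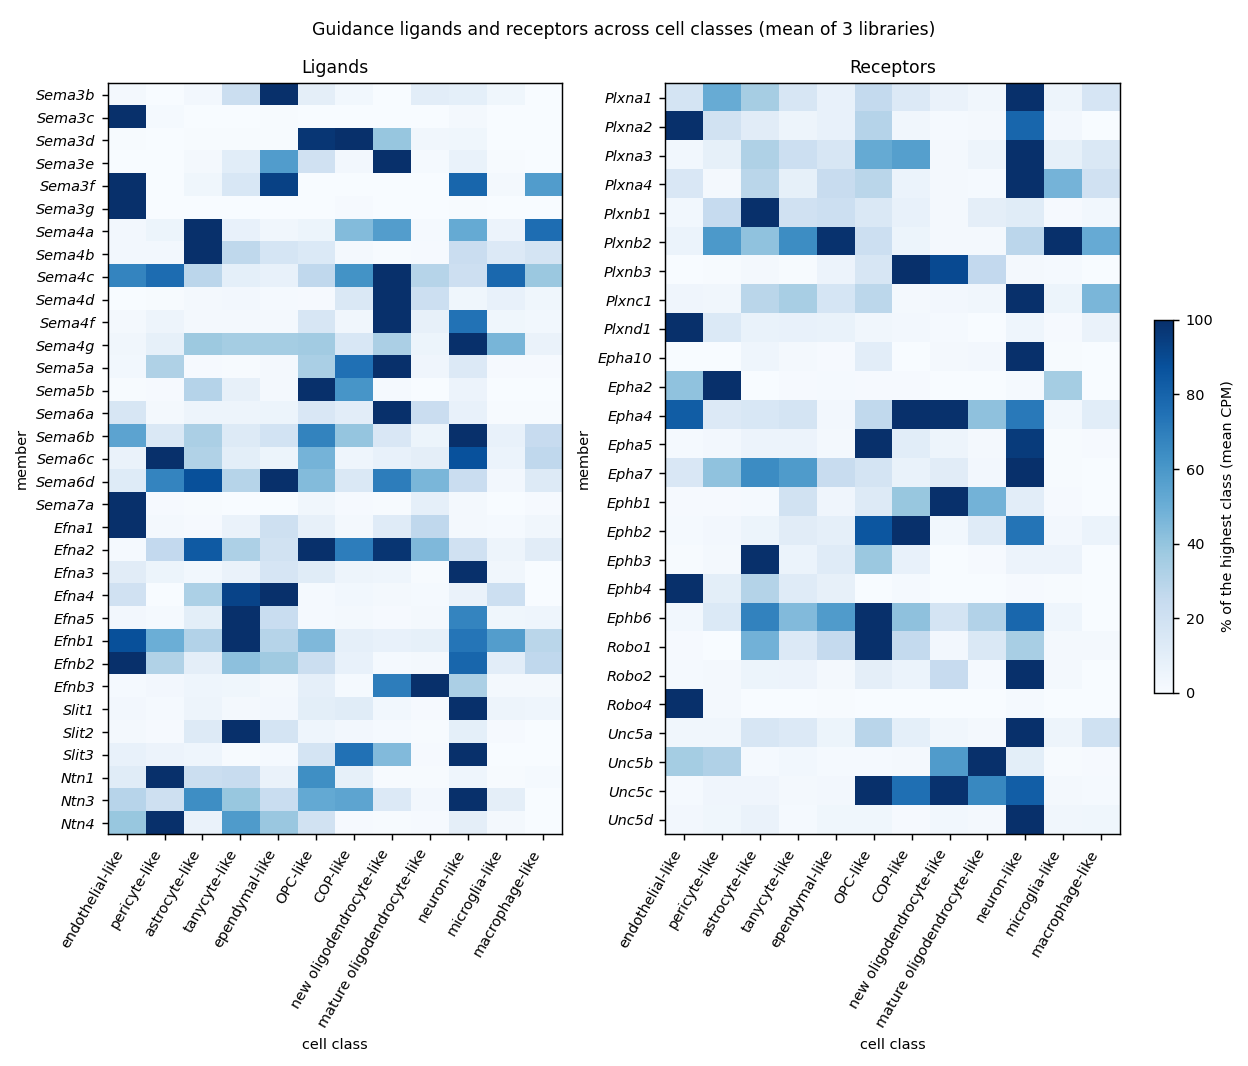
Level of each of the 59 members with enough UMIs (rows) in the 12 cell classes (columns), as the mean CPM of the 3 libraries in percent of that member's highest class. Robo4, Sema3g, Sema3c and Sema7a are dark in the endothelial-like column alone, whereas Sema4c, Efna2 and Unc5c are spread over several classes.

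Endothelial-like cells led for 4 ligands and 3 receptors. The share of all genes led by this class was 5.39%. Robo4, the endothelial member of the Robo family, had 149 CPM in the SC library, 152 in the HFHS_5d library and 164 in the HFHS_15d library. Its counting interval was 138 to 160.0 CPM in the SC library. In OPC-like cells it had 0 UMIs in all 3 libraries, with upper limits of 1.66, 1.69 and 2.49 CPM. The class next to the endothelial-like cells was ependymal-like in SC, neuron-like in HFHS_5d and pericyte-like in HFHS_15d, and the ratio was 125, 41.2 and 25.0. The last of these rests on 2 UMIs in the pericyte-like cells and has an interval of 6.87 to 207. Sema3g, a secreted semaphorin known from arterial endothelium, had 59.9, 69.3 and 45.8 CPM, and none of the other 11 classes had more than 2 CPM in any library. The next class had only 2 UMIs in each library, which gave ratios with wide intervals of 9.16 to 277 in SC, 41.2 to 1246 in HFHS_5d and 22.3 to 689 in HFHS_15d. Sema3c, another secreted semaphorin, had 414, 359.9 and 338 CPM. Plxnd1, the plexin through which Sema3e acts on vessels, had 119, 115 and 126 CPM. For all 4 genes every library put endothelial-like cells above each of the other 11 classes. For Sema3g this order turned without doublet removal, as given in the closing section.

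Sequence upstream of Sema3g and Robo4 is shown because these members were the most strongly set apart in one class, with median ratios of 82.5 and 41.2, and that of Slit2, described further down, because it leads in tanycyte-like cells. Bases are from RefSeq on GRCm38.p6, 5′ to 3′ on the plus strand, and stop before the earlier of the RefSeq and GENCODE M21 gene starts. The intervals are chr14:31217623-31217859 for Sema3g, chr9:37401722-37401896 for Robo4 and chr5:47982905-47983137 for Slit2. Capitals mark matches, on either strand, to 1 of 4 short motifs.
Sema3g: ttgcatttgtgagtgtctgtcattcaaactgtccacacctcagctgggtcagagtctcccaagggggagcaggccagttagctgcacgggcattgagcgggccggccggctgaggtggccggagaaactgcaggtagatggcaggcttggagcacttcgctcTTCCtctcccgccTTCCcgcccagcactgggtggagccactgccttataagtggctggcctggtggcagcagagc
Robo4: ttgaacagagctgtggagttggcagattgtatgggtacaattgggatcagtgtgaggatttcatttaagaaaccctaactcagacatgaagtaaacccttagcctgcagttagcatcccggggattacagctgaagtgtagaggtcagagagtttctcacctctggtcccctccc
Slit2: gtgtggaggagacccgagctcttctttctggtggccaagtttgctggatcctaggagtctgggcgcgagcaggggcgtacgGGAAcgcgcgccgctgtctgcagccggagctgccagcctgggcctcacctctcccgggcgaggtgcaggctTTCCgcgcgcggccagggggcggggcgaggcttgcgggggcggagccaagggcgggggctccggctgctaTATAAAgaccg

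CCGGAA, an ETS factor motif, and TAATTA, a homeobox motif, were searched first and had no match in these 3 windows. Over all 27025 genes with a promoter in the RefSeq table, CCGGAA was in 12.2% of the 250-base windows before the start and TAATTA in 4.90%. GGAA, the short ETS core that CCGGAA contains, and TATAAA were added after that, and TATAAA was chosen after the Slit2 sequence had been read. GGAA matched 2 times in Sema3g, 0 times in Robo4 and 2 times in Slit2 within the bases printed. It was in 93.4% of the 250-base windows of all genes, and the 250-base window of Robo4 held 3 matches, outside the 175 bases printed. TATAAA matched 1 time, in Slit2, and was in 12.97% of all windows. Of the 57 members with a promoter in the table, 6 held CCGGAA, 3 TAATTA, 51 GGAA and 2 TATAAA. The counts here are of RNA and do not measure binding, so the matches are a description of the letters.

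The other members led by endothelial-like cells were the GPI-anchored semaphorin Sema7a with 315, 297 and 275 CPM, the ephrin Efna1 with 56.6, 64.3 and 52.4 CPM, and the venous Eph receptor Ephb4 with 51.8, 50.7 and 46.5 CPM. For Sema7a the next class was mature oligodendrocyte-like cells in every library, at 25.0, 24.7 and 29.1 CPM. Endothelial-like cells fell into 3 clusters, and Sema3g was uneven among them. In the largest cluster it had 66.8, 74.3 and 50.4 CPM, while in a cluster of 28, 14 and 37 cells it had 5.25, 3.03 and 8.01 CPM. The median was 15668 UMIs per cell in that small cluster and 7262 in the largest one. At resolution 2 a cluster with the same cell numbers had the pericyte genes Abcc9 and Rgs5 among its leading genes, and the part of depth or of pericyte RNA in these levels was not tested. The third cluster, with 30, 37 and 80 cells, had 122, 118 and 109 CPM on 5, 7 and 17 UMIs. Robo4 in the cluster with little Sema3g was 159.1, 136 and 146 CPM, near its level in the whole class.

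Pericyte-like cells led for the secreted netrins Ntn1 and Ntn4 and the Eph receptor Epha2. The share of all genes led by this class was 4.35%. Ntn1 had 95.5, 121 and 128 CPM, with OPC-like cells next at 69.6, 82.7 and 66.9. Ntn4, a netrin of vascular basement membranes, had 54.0, 65.8 and 49.4 CPM, with tanycyte-like cells next at 31.3, 33.5 and 34.1. Epha2 had 55.8, 25.5 and 19.8 CPM on 31, 12 and 6 UMIs, and its ratio to the next class was 3.93, 1.77 and 1.38. Pericyte-like cells had only 303544 UMIs in the HFHS_15d library, and the interval of the ratio there was 0.475 to 3.29 for Epha2 and 0.7996 to 2.43 for Ntn4. These intervals include equality with the next class, as do those of Epha2 in HFHS_5d, 0.852 to 3.40, and of Ntn1 in SC, 0.984 to 1.88. Smooth muscle-like cells were too few to be compared, with 19, 12 and 25 cells, but had 512, 972 and 534 CPM of Ntn4. Smooth muscle markers summed to 3956, 3776 and 3723 CPM in pericyte-like cells. The part of smooth muscle RNA in their Ntn4 level was not tested.

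Tanycyte-like cells led for 3 ligands, Slit2, Efna5 and Efnb1, and for 0 receptors. The share of all genes led by this class was 2.40%. Slit2, one of the secreted Slit ligands that repel axons through Robo receptors, had 416 CPM in SC (interval 406 to 426), 424 in HFHS_5d (411 to 436) and 369 in HFHS_15d (356 to 383). The next class was ependymal-like at 70.8 and 84.6 CPM in SC and HFHS_5d, and astrocyte-like at 57.1 CPM in HFHS_15d. The ratios were 5.87, 5.00 and 6.47. Efna5, a GPI-anchored ephrin, had 136, 130.2 and 119 CPM, with neuron-like cells next at 88.7, 89.7 and 81.9. Efnb1, a transmembrane ephrin, had 37.8, 36.2 and 40.2 CPM, but its ratios to the next class were 1.15, 1.18 and 1.07 with intervals that include 1. Tanycyte-like cells thus did not differ beyond counting error from neuron-like cells in SC or from endothelial-like cells in the other 2 libraries for this gene.

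The receptors for Slit ligands were highest elsewhere. Robo1 led in OPC-like cells, with 71.9, 73.9 and 66.2 CPM, and astrocyte-like cells were next at 33.6, 31.6 and 36.8. Robo2 led in neuron-like cells, with 60.8, 52.1 and 49.6 CPM, against 3.15, 2.81 and 3.47 in tanycyte-like cells. Slit1 also led in neuron-like cells, with 48.3, 36.2 and 41.2 CPM. Robo3 had 13, 5 and 17 UMIs over all cells of a library and was not considered. Slit3 was highest in neuron-like cells in SC and HFHS_15d, at 15.9 and 10.5 CPM, and in COP-like cells in HFHS_5d, at 14.2 CPM on 12 UMIs.

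**Figure D2:**
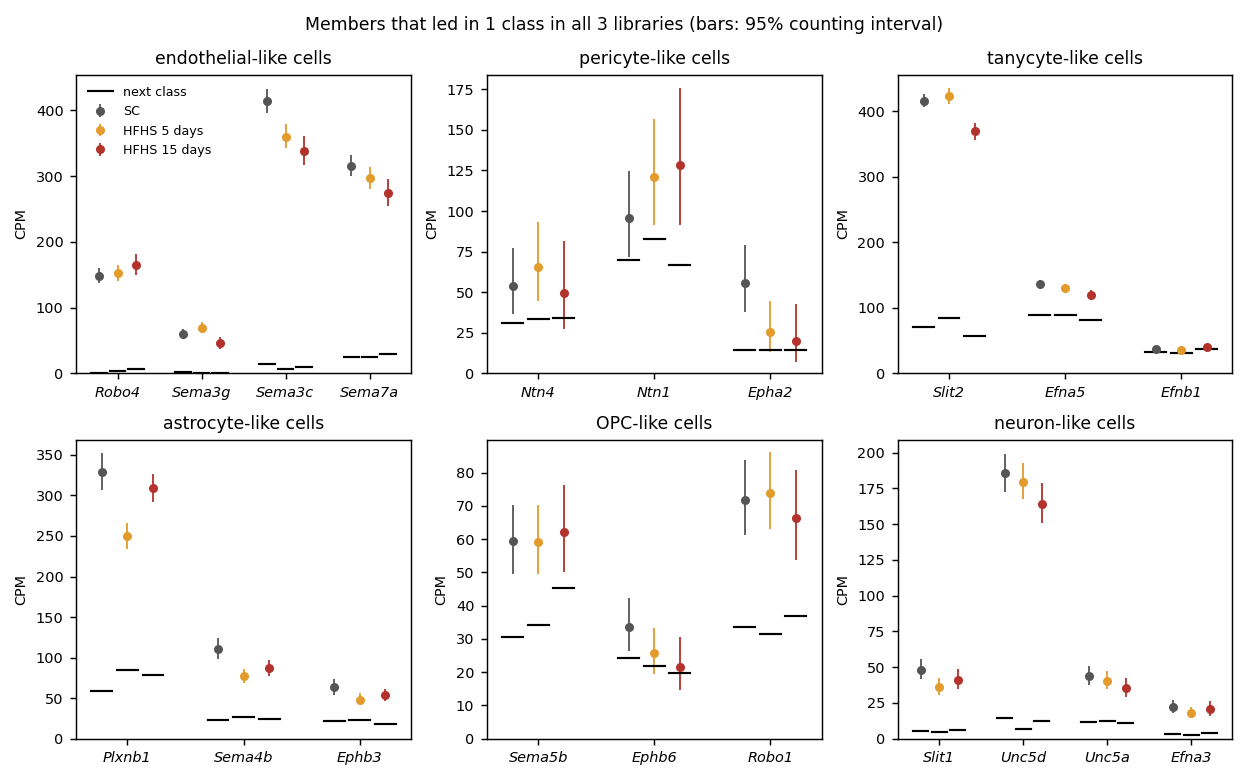
CPM of members that led in 1 class in all 3 libraries, in 6 of the classes; points are libraries with their 95% counting intervals, and short black lines give the next highest class in that library. Robo4, Sema3g, Sema3c and Sema7a sit far above the black lines, whereas Efnb1 and Ephb6 lie close to them.

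Astrocyte-like cells led for the plexin Plxnb1, the transmembrane semaphorin Sema4b and the Eph receptor Ephb3. The share of all genes led by this class was 6.24%. Plxnb1, the receptor for Sema4d, had 329, 249 and 309 CPM, and the next class reached 58.8, 84.9 and 79.1. Sema4b had 111, 77.1 and 86.8 CPM, with tanycyte-like cells next at 23.7, 27.2 and 24.1. Ephb3 had 63.7, 48.4 and 53.4 CPM, with OPC-like cells next at 21.6, 23.0 and 18.2. For each of the 3 the lowest value in astrocyte-like cells was in the HFHS_5d library. Ependymal-like cells led for Sema6d, with 256, 251 and 279.7 CPM, but astrocyte-like cells followed at 231, 214 and 243, and the ratio was 1.11, 1.17 and 1.15. This order turned in 3 alternatives, where the log2 ratio was -0.047 with at least 1000 genes per cell, -0.28 after thinning to 1000 UMIs and -0.66 with equal weights for all cells. Ependymal-like cells also led for the secreted semaphorin Sema3b, at 14.7, 13.6 and 10.2 CPM.

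New oligodendrocyte-like cells led for 4 ligands and 1 receptor, where this class led for 2.86% of all genes. Sema4d, a transmembrane semaphorin made by oligodendrocytes, had 17.5, 10.6 and 14.9 CPM in OPC-like cells and 265, 163 and 191 in COP-like cells. It reached 1196, 1430.1 and 1609.5 CPM in new oligodendrocyte-like cells and was 289.5, 291 and 332 in mature ones. The marker list for new oligodendrocytes did not separate these stages, with summed levels of 7312, 6773 and 6310 CPM in COP-like and 4504, 4113 and 4753 in new oligodendrocyte-like cells. By CPM alone the order of the 4 classes was the same in all 3 libraries, and the ratio of new to mature cells was 4.13, 4.91 and 4.84. In SC the COP-like and mature cells were close, at 265 and 289.5 CPM, and no interval is given for their ratio. Sema6a, also transmembrane, had 112, 100.1 and 109 CPM in OPC-like cells, 624, 814 and 697 in new and 157, 161 and 166 in mature oligodendrocyte-like cells. Sema5a was already high in COP-like cells, at 390 CPM in SC, 335 in HFHS_5d and 311 in HFHS_15d, had 487, 382 and 512 in new oligodendrocyte-like cells and 22.5, 12.8 and 22.0 in mature ones. In HFHS_5d the ratio of new to COP-like cells, 1.14, has an interval of 0.979 to 1.33 that includes equality. Ephb1, an Eph receptor, had 182, 176 and 220.4 CPM in new and 94.98, 87.4 and 93.3 in mature cells. Sema4c, another transmembrane semaphorin, had 41.7, 35.5 and 40.6 CPM beside 32.4, 31.8 and 31.6 in the next class. Its ratio intervals of 0.749 to 2.32, 0.604 to 2.17 and 0.860 to 1.87 all include equality, and its log2 ratio was -0.32 with cells thinned and -0.58 with equal weights.

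Late in the lineage the pattern was different for 2 members. The transmembrane ephrin Efnb3, also known from myelin, was at 34.1, 43.2 and 39.2 CPM in OPC-like cells, 4.49, 4.72 and 6.46 in COP-like cells, 304, 320 and 295 in new oligodendrocyte-like cells and 434, 436 and 442 in mature cells. Unc5b, a netrin receptor also known from vessels, was at 189, 209 and 201 CPM in mature cells and 102, 126 and 119.5 in new ones. Unc5c was within 1.09-fold of its next class wherever it led, with 136, 132 and 111 CPM in OPC-like and 136, 121 and 117 in new oligodendrocyte-like cells, so no single class led. Plxnb3, a plexin of the oligodendrocyte lineage, was highest in COP-like cells in SC and HFHS_5d, at 234 and 198 CPM, and in new oligodendrocyte-like cells in HFHS_15d, at 228. The new oligodendrocyte-like class held 126, 78 and 75 cells, with median UMIs per cell of 2731 in SC, 4075 in HFHS_5d and 11462 in HFHS_15d. The part of this difference in depth in these levels was not tested.

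**Figure D3:**
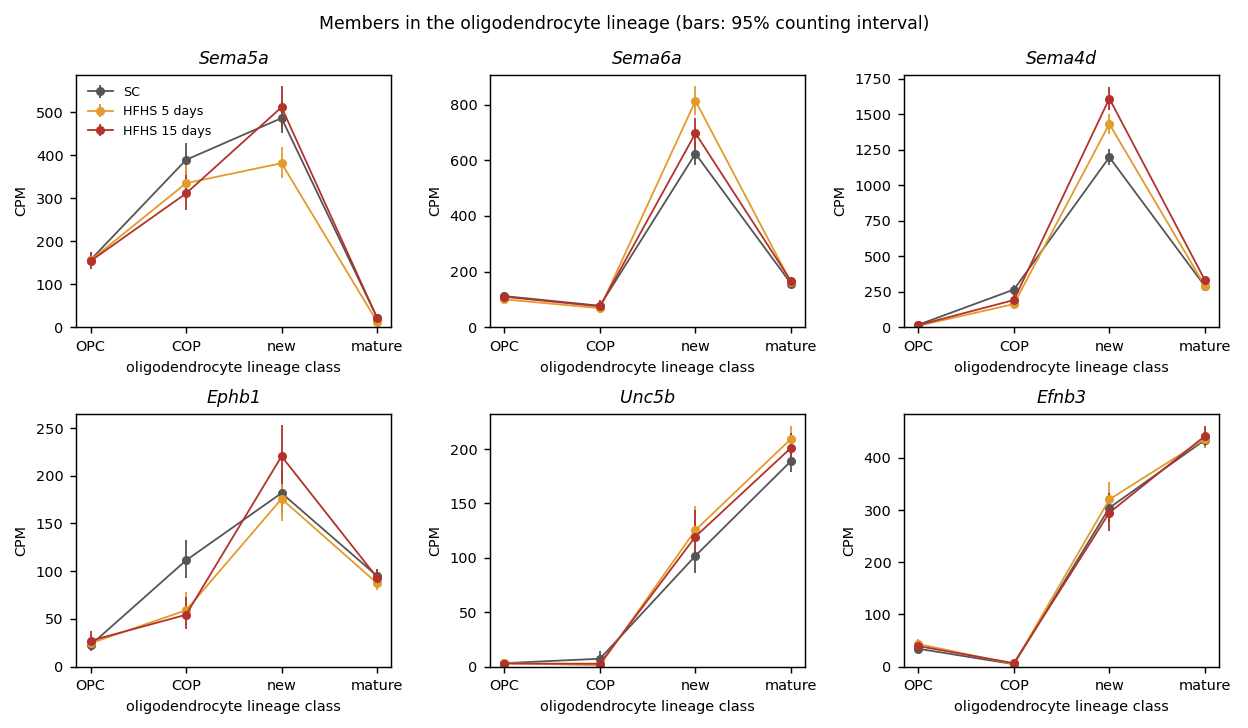
CPM of 6 members in 4 classes of the oligodendrocyte lineage, from OPC-like to mature oligodendrocyte-like cells, for each library with 95% counting intervals. Sema4d, Sema6a, Sema5a and Ephb1 peak in new oligodendrocyte-like cells in every library, and Unc5b and Efnb3 are highest in mature ones.

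OPC-like cells led for the semaphorin Sema5b, the catalytically inactive Eph receptor Ephb6 and Robo1. The share of all genes led by this class was 5.59%. Sema5b had 59.3, 59.2 and 62.2 CPM, with COP-like cells next at 30.5, 34.2 and 45.2. In HFHS_15d the interval of its ratio to COP-like cells, 0.922 to 2.09, included equality. Ephb6 had 33.7, 25.7 and 21.6 CPM and led the next class by only 1.10-fold in HFHS_15d. Its ratio intervals in HFHS_5d and HFHS_15d, 0.828 to 1.65 and 0.701 to 1.68, included equality. Epha5, an Eph receptor for A-type ephrins, was shared between OPC-like cells, at 271, 247 and 294 CPM, and neuron-like cells, at 292, 217 and 266. Sema3d was shared between OPC-like cells, at 128, 141 and 138 CPM, and COP-like cells, at 149.9, 137 and 131.

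Neuron-like cells led for 13 members, 4 ligands and 9 receptors. The share of all genes led by this class was 12.5%. The receptors were Unc5a, Unc5d, Epha7, Epha10, Plxna1, Plxna3, Plxna4, Plxnc1 and Robo2, and the ligands were Efna3, Sema4g, Sema6b and Slit1. For Epha7, Plxna1, Plxna3, Plxnc1, Sema4g and Sema6b, the interval of the ratio to the next class included equality in some library. It was 0.859 to 2.00 in SC and 0.856 to 1.90 in HFHS_15d for Epha7, and 0.716 to 2.29 in HFHS_15d for Plxna1. For Plxna3 it was 0.954 to 2.39 in HFHS_5d and 0.837 to 2.43 in HFHS_15d, and for Plxnc1 0.915 to 3.15 in SC. Sema4g had 0.998 to 1.71 in HFHS_15d and Sema6b 0.834 to 1.49 in HFHS_5d. Unc5d, a netrin receptor that also binds Flrt proteins, had 185, 179.7 and 164 CPM, and the highest other class had 14.4, 6.93 and 12.6. Epha10, an Eph receptor without kinase activity, had 14.9, 10.6 and 12.2 CPM, with OPC-like cells next on 2, 2 and 3 UMIs, so its ratios have intervals of 4.40 to 139.9, 3.02 to 98.2 and 1.93 to 30.5. Efna3 had 22.3, 18.0 and 20.6 CPM, and ependymal-like cells followed at 3.32, 2.81 and 3.88. Plxnc1, the receptor for Sema7a, had 108, 99.6 and 108 CPM, where macrophage-like cells reached 66.6, 34.1 and 45.2.

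Microglia-like cells shared Plxnb2, a plexin for class 4 semaphorins, with ependymal-like cells, at 187, 196 and 160.4 CPM against 159 in SC, 184 in HFHS_5d and 195 in HFHS_15d. They also carried Sema4d at 103, 100.1 and 114 CPM. Plxna4 reached 37.6, 46.7 and 43.0 CPM in microglia-like cells, beside 53.0, 58.8 and 44.1 CPM of its antisense transcript Plxna4os1. Whether the authors' counting used strand is not given in the sources used here. In the GENCODE M21 annotation, 15 members share exon sequence with a gene on the other strand and 3 with one on the same strand.

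In 18 of the 59 members, 11 ligands and 7 receptors, the leading class differed between libraries. The ligands were Efna2, Efna4, Efnb2, Ntn3, Sema3d, Sema3e, Sema3f, Sema4a, Sema4f, Sema6c and Slit3, and the receptors Epha4, Epha5, Ephb2, Plxna2, Plxnb2, Plxnb3 and Unc5c. Plxna2 had 104, 94.2 and 138 CPM in endothelial-like and 106, 76.8 and 83.0 in neuron-like cells. Efnb2, the arterial ephrin, had 31.3, 37.3 and 43.8 CPM in endothelial-like and 32.7, 25.6 and 30.5 in neuron-like cells. Epha4 was between 67.5 and 128 CPM in new oligodendrocyte-like, between 96.9 and 116 in COP-like and between 78.0 and 92.2 in endothelial-like cells. The 7 members left out for low counts were Epha1, Epha3, Epha6, Epha8, Ntn5, Robo3 and Sema3a. Their UMIs over all kept cells came to between 2 for Ntn5 and 133 for Epha3. The neuronal repellent Sema3a had 111 UMIs in all.

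Tanycyte-like cells were divided into a Tgfb2-high type (247, 153 and 149 cells) and a Col25a1-high type (365, 246 and 379 cells), by which of Tgfb2 and Col25a1 had the higher CPM in each cluster. A further cluster of 10, 16 and 12 cells was too small and entered neither type. This division was chosen after the clusters had been seen, because the marker lists for alpha and beta tanycytes did not separate them fully. Of the 7 beta markers considered, 6 were higher in the Col25a1-high type in all 3 libraries and 0 in the Tgfb2-high type. Of the 7 alpha markers considered, 4 were higher in the Tgfb2-high type, while 2, Crym and Vcan, were higher in the Col25a1-high type. Tgfb2 and Col25a1 are themselves among these markers, so the counts are not independent of the division. A gene was called when its CPM differed by at least 1.5-fold in the same direction in every library and each interval excluded equality.

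Of 35 members considered, 7 were called higher in the Col25a1-high type, namely Efna5, Efnb1, Efnb2, Epha4, Epha5, Plxnc1 and Sema5b, where 2.87% of all genes were called in that direction. Another 3, Sema6d, Plxnd1 and Sema6a, were called higher in the Tgfb2-high type, where 9.04% of all genes were. This balance moved with the settings: without the HFHS_15d library the counts were 8 in the Tgfb2-high and 7 in the Col25a1-high type, with a minimum of 10 UMIs 7 and 7, and with cells thinned to 1000 UMIs 0 and 0. Ephrins and Eph receptors lay on both sides. Of the 12 considered, 5 were called higher in the Col25a1-high type, 0 in the Tgfb2-high type and 7 in neither. Efna1, Ephb3 and Sema3e were under the minimum of 30 UMIs and were not considered, and each was higher in the Tgfb2-high type in every library with intervals above 0. Their log2 ratios were 1.90, 1.97 and 2.14 for Efna1, 2.92, 2.32 and 1.76 for Ephb3, and 3.41, 3.25 and 4.25 for Sema3e. Sema3b, also under the minimum, had 5.70, 6.59 and 5.22 CPM in the Tgfb2-high type and 0.875, 1.10 and 1.05 in the Col25a1-high type. The median log2 ratio of Tgfb2-high over Col25a1-high was -0.20 over the 35 members and 0.016 over all genes.

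Epha4, an Eph receptor that binds both classes of ephrin, had 3.48, 3.73 and 0.870 CPM in the Tgfb2-high type and 25.2, 27.5 and 29.3 CPM in the Col25a1-high type. All 3 libraries separated the types, with log2 ratios of -2.85, -2.88 and -5.07. The last of these rests on 2 UMIs in the Tgfb2-high type and has an interval of -8.13 to -3.20. Epha5 had 7.12, 6.15 and 4.79 CPM against 16.0, 19.98 and 26.5, with log2 ratios of -1.16, -1.70 and -2.47.

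Among the ephrins, Efna5 had 99.1, 88.9 and 77.0 CPM in the Tgfb2-high type and 162, 161 and 137 in the Col25a1-high type. Efnb1 had 26.6, 25.0 and 22.6 CPM against 45.7, 44.2 and 47.5. Efnb2 had 7.91, 5.93 and 8.70 CPM against 20.3, 15.6 and 24.5. No library reversed the order for any of these 3 ligands, and the log2 ratios ran from -0.71 for Efna5 in SC to -1.50 for Efnb2 in HFHS_15d. Plxnc1 had 24.7, 19.3 and 20.01 CPM against 46.2, 46.4 and 41.5. Sema5b was low, with 6, 10 and 1 UMIs in the Tgfb2-high type and 59, 48 and 39 in the other.

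On the other side, Sema6d had 150.1, 145 and 171 CPM in the Tgfb2-high type and 32.2, 34.3 and 36.4 in the Col25a1-high type. Its log2 ratios of 2.22, 2.08 and 2.23 agree within their intervals. Plxnd1 had 12.7, 14.1 and 20.01 CPM against 4.70, 4.88 and 7.36. Sema6a had 53.0, 45.4 and 51.8 CPM against 24.5, 25.3 and 27.0. The other 25 members considered were not called. Slit2 had 435, 439.6 and 372 CPM in the Tgfb2-high type and 403, 413 and 368 in the Col25a1-high type, with log2 ratios of 0.11, 0.09 and 0.01. Plxnb2 had 116, 135 and 138 CPM against 112, 106 and 108, and Ephb1 30.1, 29.0 and 38.3 against 35.4, 37.9 and 46.8. Plxnb1 had 66.3, 76.6 and 88.3 CPM against 48.0, 47.5 and 46.6, under 1.5-fold in the SC library alone.

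**Figure D4:**
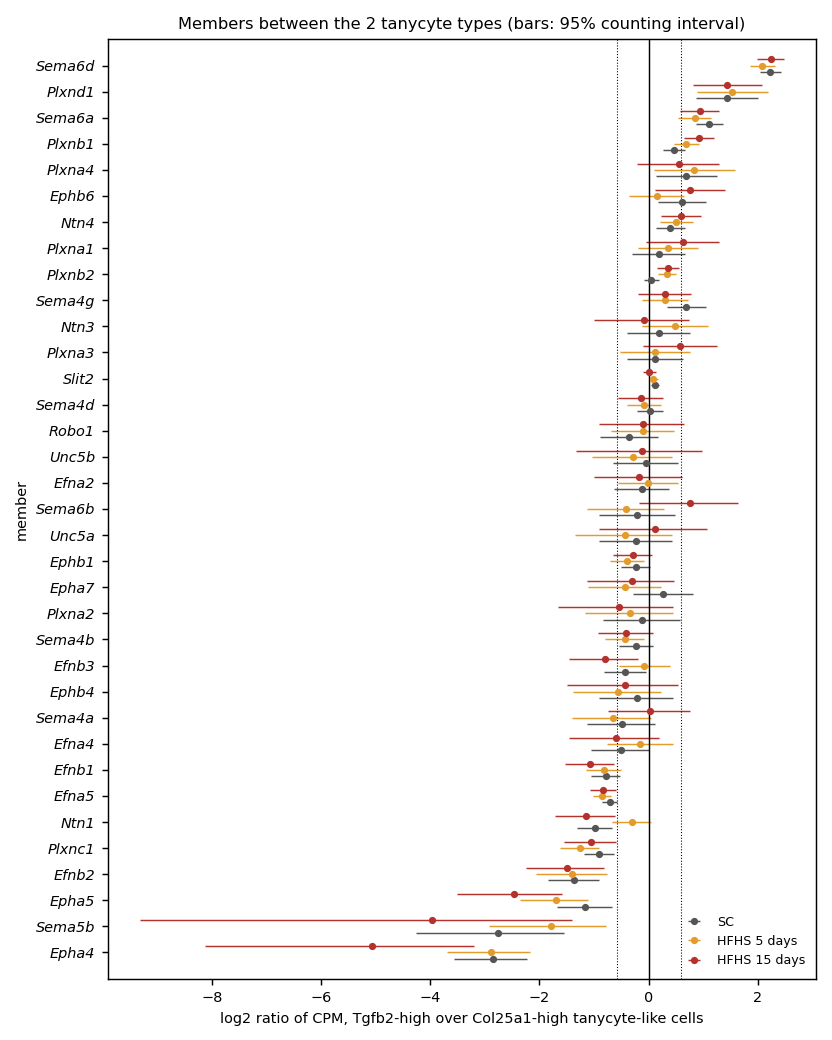
Log2 ratio of CPM, Tgfb2-high over Col25a1-high tanycyte-like cells, for the 35 members considered, with 95% counting intervals in each of the 3 libraries; dotted lines mark 1.5-fold. Sema6d lies at 2.08 to 2.23 in all 3 libraries and Epha4 at -5.07 to -2.85, while Slit2 sits between 0.01 and 0.11.

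Within the Col25a1-high type Slit2 was uneven. In a cluster of 71, 37 and 72 cells with Scn7a among its leading genes, Slit2 had 243, 155 and 207 CPM. The other 2 clusters of this type had 429, 433 and 416 CPM, and 455, 503 and 299 CPM. Epha4 in the cluster with Scn7a was 30.8, 41.7 and 50.3 CPM. In the other 2, in the same order, it was 27.6, 22.5 and 25.9 CPM, and 18.4, 28.7 and 26.8 CPM. By CPM alone, the cluster with Scn7a had the lowest Slit2 and the highest Epha4 of the 3 clusters in every library. In SC its Epha4 was close to that of another cluster, and no intervals were computed for clusters.

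Genes that work with the members were examined from 5 lists, to be read against the 9.04% and 2.87% of all genes called higher in the Tgfb2-high and the Col25a1-high type. Of 18 semaphorin and plexin partners considered, 4 were called higher in the Tgfb2-high type (Dpysl5, Farp1, Itga1 and Ptprz1) and 0 in the other. Of 15 Slit and Robo partners, 2 (Enah and Srgap2) and 0 were called. Of 13 netrin partners, Flrt2 and Rgma were higher in the Tgfb2-high type and Lrrc4c in the Col25a1-high type. Of 16 ephrin and Eph partners, only Nck2 was called, in the Tgfb2-high type. Of 19 shared cytoskeletal effectors, 5 were higher in the Tgfb2-high type, among them Abl2, Ablim1 and Trio, with log2 ratios for Ablim1 of 0.84, 1.09 and 1.14. Rgma, a membrane ligand of neogenin, had 122, 129 and 146 CPM in the Tgfb2-high type and 51.6, 60.6 and 58.9 in the other. Lrrc4c, the receptor of netrin-G1, had 20.4, 19.1 and 17.0 CPM against 67.4, 71.0 and 66.6.

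For diet, a pair of a class and a member was considered when its UMIs in the 2 libraries summed to at least 50. It was called when the CPM differed by at least 1.5-fold and the whole interval lay beyond a 25% increase or the matching decrease. The 9 classes with at least 100 cells in every library were used, and both comparisons share the SC library. In the HFHS_5d library, 0 of 255 pairs were called higher (0.591% of all class and gene pairs) and 8 were called lower (0.807%). In the HFHS_15d library, 1 of 237 pairs was called higher (1.49%) and 8 were called lower (1.81%), all 8 of them in neuron-like cells.

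The 5-day calls were spread over 4 classes. Lower were 3 of 45 members in neuron-like cells (3.49% of all genes there), 2 of 20 in mature oligodendrocyte-like cells (0.738%), 2 of 33 in astrocyte-like cells (1.01%) and 1 of 33 in ependymal-like cells (0.182%). In neuron-like cells Sema5a had 86.0 CPM in SC and 45.2 in HFHS_5d, a log2 ratio of -0.93 with an interval of -1.19 to -0.67. Sema6b had 58.1 against 36.7 CPM there and Sema3c 13.9 against 6.00. In mature oligodendrocyte-like cells Sema5a had 22.5 against 12.8 CPM and Robo1 12.7 against 6.90. In astrocyte-like cells Epha7 had 13.7 against 6.31 CPM and Unc5d 14.4 against 6.31, on 24 UMIs each in HFHS_5d. In ependymal-like cells Ntn1 had 10.2 against 4.33 CPM, on 20 UMIs.

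The 15-day calls in neuron-like cells were the plexins Plxna3, Plxnb1 and Plxnb2 and the ligands Sema3c, Sema4g, Sema5a, Sema6c and Slit2. Of 41 members considered in this class 8 were lower, where 9.16% of all genes in neuron-like cells were. Sema4g had 67.8 CPM in SC and 37.3 in HFHS_15d, a log2 ratio of -0.86 with an interval of -1.18 to -0.55. Sema5a had 86.0 against 52.3 CPM, Plxna3 53.8 against 32.3 and Slit2 47.8 against 26.6. Plxnb1 had 42.5 against 24.5 CPM, Plxnb2 62.2 against 39.4, Sema6c 27.4 against 15.2 and Sema3c 13.9 against 5.97. The median log2 ratio in neuron-like cells was -0.40 over the members and -0.19 over all genes.

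The makeup of the neuron-like class differed between libraries. A cluster led by Agrp and Npy held 6 cells in SC, 32 in HFHS_5d and 33 in HFHS_15d. A cluster led by Snhg11 and Ryr2, where Sema5a had 109, 80.0 and 92.7 CPM, held 234, 125 and 212, and one led by Cartpt, Gal and Pomc held 43, 33 and 65. With the first of these left out for its few cells in SC and the other 2 in the same mix in both libraries, 0 of 41 members were lower in HFHS_15d (1.11% of all genes) and 1 of 44 in HFHS_5d (0.476%). Summed markers of astrocytes in neuron-like cells were 574, 467 and 347 CPM in SC, HFHS_5d and HFHS_15d, those of tanycytes 678, 581 and 548, those of OPC 466, 314 and 250, those of mature oligodendrocytes 558, 265 and 328, those of endothelium 317, 307 and 105, and those of neurons themselves 26841, 22496 and 21929. In these 6 lists, 0 markers were at 0 in all 3 libraries. Not every other list was lower than SC in both HFHS libraries. In the same order, ependymal markers were 107, 155 and 100 CPM, pericyte markers 113, 146 and 26.6, and pars tuberalis markers 201, 189 and 259. Markers of vascular leptomeningeal cells were 13.2, 16.1 and 46.6 CPM and those of lymphocytes 5.77, 13.6 and 8.96. With scaling by TMM factors, which shifts the neuron-like ratios by 0.20 on the log2 scale, 1 pair in any class was called lower in HFHS_15d. The part of the other cells' RNA in the result was not tested.

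In tanycyte-like cells Epha5 had 12.4 CPM in SC, 14.1 in HFHS_5d and 20.1 in HFHS_15d. The log2 ratio of HFHS_15d over SC was 0.70, with an interval of 0.39 to 1.01, and Epha5 was the 1 member called of 45 in this class (1.11% of all genes). Cells of the Col25a1-high type, where Epha5 is higher, were 365 of 622 tanycyte-like cells in SC and 379 of 540 in HFHS_15d. With the same mix of clusters in both libraries the log2 ratio was 0.54, under the 1.5-fold threshold, and with at least 1000 genes per cell it was 0.11.

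The members with most UMIs in each class were not called between diets. In tanycyte-like cells the log2 ratio of HFHS_15d over SC was -0.17 for Slit2, with an interval of -0.23 to -0.11, and -0.19 for Efna5. In endothelial-like cells it was -0.29 for Sema3c, -0.20 for Sema7a and 0.15 for Robo4. In mature oligodendrocyte-like cells it was 0.02 for Efnb3, 0.20 for Sema4d and 0.09 for Unc5b. In OPC-like cells it was 0.12 for Epha5, -0.03 for Sema5a and 0.11 for Sema3d, each with an interval that includes 0. In neuron-like cells it was -0.14 for Epha5, -0.17 for Unc5d and 0.04 for Efnb3. In microglia-like cells it was -0.22 for Plxnb2, 0.15 for Sema4d and 0.19 for Plxna4, and in ependymal-like cells 0.13 for Sema6d, 0.29 for Plxnb2 and -0.36 for Slit2. In astrocyte-like cells Plxnb1 was at -0.40 in HFHS_5d, with an interval of -0.53 to -0.26, and at -0.09 in HFHS_15d. In pericyte-like cells Sema5a was at -0.67 in HFHS_15d, with an interval of -1.30 to -0.07 that failed the rule.

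**Figure D5:**
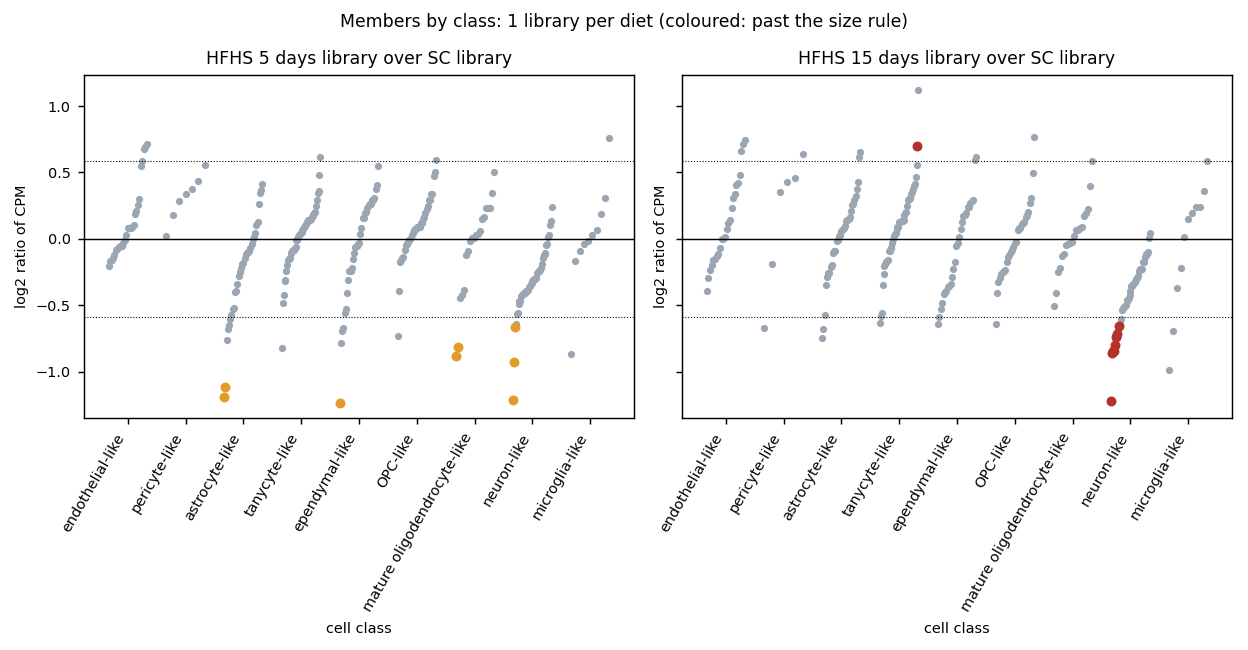
Log2 ratio of CPM for each member considered in 9 classes, HFHS_5d over SC (left) and HFHS_15d over SC (right), with 1 library per diet; dotted lines mark 1.5-fold and coloured points passed the size rule. The 8 lower points in HFHS_15d are all in neuron-like cells, and the 1 higher point is Epha5 in tanycyte-like cells.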

How the data were processed

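The authors deposited 1 matrix of UMI counts per library, whole numbers that are not normalized. Per the submitters' processing notes, Cell Ranger, SAMtools and Scanpy 1.4.4 and the build GRCm38 were used, and per the file headers the matrices came from software version 3.1.0. The gene annotation and the use of strand are not given in the sources used here. A barcode was kept if it had 500 or more genes and no more than 20% of its UMIs were mitochondrial. Scrublet scores were computed with Scanpy 1.11.5, whose own threshold marked 0%, 1.27% and 1.53% of barcodes, so the highest scores were removed instead, at 0.8% per 1000 barcodes (291, 211 and 344 barcodes). Cells were clustered together on 3000 variable genes without the members, 40 components, 15 neighbours and Leiden resolution 1. Clusters were named with at least 3 markers among the 50 leading genes. Clusters led by markers of another class, and the tanycyte-like cells, were clustered again on 2000 genes, 20 components and resolution 0.5, a step chosen after seeing the clusters.

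For each class in each library, a gene's UMIs were added up and divided by the UMIs of all genes. Exact Poisson intervals and conditional-binomial intervals for ratios are at 95%. The size rules were run on simulated Poisson counts. These hold no variation between cells, pools or libraries, so the run cannot show how often such variation gives a call. Cells are not replicates, so no test was run. The members, lists and comparisons were chosen with earlier results of these data known. Members named with values in every library are up to 4 per leading class by median ratio to the next class, all called between tanycyte types or diets, and up to 4 or 3 more by UMI sum. Other named members were chosen after their values were seen. Alternatives were run as in the closing section, with TMM factors from edgeR 4.0.16. Promoter sequences are from RefSeq (GRCm38.p6) and gene positions from GENCODE M21.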

Additional observations from a re-analysis of the deposited data

Results flagged for a closer look

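In 7 cases a member called in one class between a diet library and the SC library had an interval on the other side of 0 in another class of the same comparison. These differences between classes were not tested, since each diet has 1 library. The share of such cases over all genes was not computed, so the 7 have no background beside them. Some opposite intervals barely excluded 0. The nearer limit was 0.016 for Sema6b in tanycyte-like, 0.025 for Sema4g in OPC-like and -0.011 for Epha5 in neuron-like cells. With a fixed mix of clusters in HFHS_15d, 0 members were called lower in neuron-like cells and 0 higher in tanycyte-like cells. Each value is a difference of log2 ratios, the second named class subtracted from the first. In HFHS_5d against SC it was 1.82 for Ntn1 in endothelial-like minus ependymal-like cells and 1.15 for Sema6b in tanycyte-like minus neuron-like cells. In HFHS_15d against SC it was 1.19 for Plxnb1 in mature oligodendrocyte-like minus neuron-like cells, 0.95 for Plxnb2 in ependymal-like minus neuron-like cells and 1.62 for Sema4g in OPC-like minus neuron-like cells. It was 1.43 for Sema5a in endothelial-like minus neuron-like cells and -0.83 for Epha5 in neuron-like minus tanycyte-like cells.

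Ntn4 stood out in smooth muscle-like cells, a class too small to enter the comparisons of levels. It had 75, 96 and 84 UMIs there, which is 512, 972 and 534 CPM with a mean of 673. Each lower limit, 403, 787 and 426 CPM, was above the upper limit of the highest compared class in that library, pericyte-like cells at 77.1, 93.4 and 81.5 CPM.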

How the results depend on the processing

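No paired analysis was possible because each diet has 1 library. The counts set against the alternatives were 41 members with one leading class, 3 and 7 members higher in Tgfb2-high and Col25a1-high tanycyte-like cells, 0 and 8 pairs higher and lower in HFHS_5d, and 1 and 8 in HFHS_15d. The first stayed within 1.5 times of 41 in every alternative run, from 28 with cells thinned to 1000 UMIs to 49. Leaving out 1 library gave 45 to 49 members with one leading class, and 4 to 8 and 7 to 8 between the tanycyte types.

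With the members left in among the clustering genes the counts were 0 and 3 between the types and 2 higher in HFHS_15d. These compare other cells, since the 775 cells led by Tgfb2 and Rspo3 stayed unnamed there and the type took 542 cells led by Crym, with a median of 1223.5 UMIs and 57.2 CPM of Tgfb2 against 449. At resolution 2 they were 5 in Tgfb2-high, 4 lower in HFHS_5d, and 2 higher and 0 lower in HFHS_15d. With at least 1000 genes per cell they were 2 higher and 5 lower in HFHS_5d and 2 higher in HFHS_15d. With at most 10% mitochondrial UMIs they were 3 lower in HFHS_5d, and 3 higher and 2 lower in HFHS_15d. Without doublet removal they were 2 and 5 in HFHS_5d and 4 and 5 in HFHS_15d. After thinning, 0 members were called between the types and 0 pairs were lower in HFHS_5d or called in HFHS_15d. With every cell weighted equally the counts were 5 in Tgfb2-high, 13 higher in HFHS_5d and 11 higher in HFHS_15d. With 10% free RNA subtracted, 4 were higher in HFHS_15d. A minimum of 10 UMIs gave 7 in Tgfb2-high, 1 higher in HFHS_5d and 5 higher in HFHS_15d, and a minimum of 100 gave 4 lower in HFHS_5d. TMM and median-of-ratios scaling each gave 5 lower in HFHS_5d and 1 lower in HFHS_15d. A fixed mix of clusters gave 2 lower in HFHS_5d and 0 in HFHS_15d. The count higher in HFHS_15d stayed at 1, but for another pair. It was in pericyte-like cells, on 2 of their 3 clusters, while 0 members were called higher in tanycyte-like cells. A ratio of at least 2 gave 4 in Col25a1-high, 4 lower in HFHS_5d, and 0 higher and 1 lower in HFHS_15d. The cause was not tested, except that fewer UMIs, a stricter ratio or another minimum changes what can be called by construction.

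Log2 ratios of single members turned sign in 13 cases. For Sema6d in ependymal-like cells they were -0.047 with at least 1000 genes, -0.28 thinned and -0.66 with equal weights. Without doublet removal Sema3g was at -1.47 and Ntn4 at -3.25, and smooth muscle-like cells, with 27, 18 and 28 cells, entered the comparison there. In the main setting smooth muscle-like cells had 0 UMIs of Sema3g in every library. The part of the barcodes kept as cells in that alternative in the Sema3g value was not tested. No cluster was named new oligodendrocyte-like in that setting or with at least 1000 genes, so the 4 named members led by this class have no value there. At resolution 2 and at 10% mitochondrial UMIs, neuron-like cells had under 100 cells in a library and entered no diet comparison, so those counts hold no neuron-like pair. Thinning, free RNA subtraction and leaving the members in also left 6, 1 and 2 named values out. Thinning gave -0.50 for Sema3b, -0.32 for Sema4c, -0.39 for Efnb1, 0.39 for Robo1 in mature oligodendrocyte-like cells, and 0.38 for Plxnb1 and 0.22 for Slit2 in neuron-like cells. Equal weights gave -0.58 for Sema4c and 0.37 for Plxnb1 in neuron-like cells. Of the other values of single members, 717 kept their direction within set limits and 48 moved beyond them. For diet ratios the limits were the counting interval of the main result. For leading classes and tanycyte types they ran from the lowest to the highest limit of the 3 library intervals, which is a wider band. Of the 717, 354 were for leading classes and 154 for tanycyte types. Depth limits the diet comparison most in pericyte-like cells, where 7 and 6 members could be considered.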

Other observations

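Vascular leptomeningeal-like cells, with 12, 18 and 60 cells, were too few to be compared for levels. Epha3, an Eph receptor of mesenchymal cells that was too low to be considered elsewhere, had 72.5, 70.5 and 18.7 CPM there, and neuron-like cells had 7.21, 4.61 and 4.48. Efnb1 had 157, 96.9 and 65.5 CPM, beside 37.8, 36.2 and 40.2 in tanycyte-like cells. Robo2 had 72.5, 70.5 and 53.1 CPM there, next to 60.8, 52.1 and 49.6 in neuron-like cells. Robo1 had 36.3, 44.0 and 59.3 CPM in this class and 71.9, 73.9 and 66.2 in OPC-like cells. The class held 82717, 113553 and 320423 UMIs of all genes. Epha3 rests on 6, 8 and 6 UMIs in it, and Robo2 on 6, 8 and 17. The Robo2 intervals of 26.6 to 158, 30.4 to 139 and 30.9 to 84.9 CPM hold the neuron-like values, so the classes were not separated.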
